A study of Arabidopsis thaliana with 27 samples.

Results

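The 44 genes described here encode proteins of the cytosolic ribosome of Arabidopsis thaliana. They were taken as the rows of the deposited count table that carry 44 listed gene identifiers, out of 33612 rows. By protein family, 24 belong to the large subunit, 15 to the small subunit and 5 to the acidic stalk of the large subunit. All 44 were found in the table, passed the filter on low counts and were matched by locus tag in RefSeq. Some RefSeq product names, such as those of BBC1, EMB1080 and AT5G03850, do not name a ribosomal protein. They are a part of the family. A search limited to RefSeq product names of eukaryote type found 64 other rows for cytosolic ribosomal proteins, of which 56 passed the same filter. The search left out genes under other forms of name, so the 64 are not all the rest. AT1G33120, which shares sequence with PGY2, is not among them.

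A ribosome holds 1 copy of most of its proteins, so a growing cell transcribes their genes in step, at very high levels. In plants each protein is encoded by a small family of near-identical genes (paralogues), and these transcripts are prominent in seeds as they take up water and prepare to germinate. Ribosomes of the cytosol are made from nuclear genes, whereas plastids have a ribosome of their own with a different protein set, also encoded largely in the nucleus.

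The study sequenced poly(A) RNA from seeds of the hid1 mutant, a mutant of the noncoding RNA HID1, of the phyB mutant of the red light receptor phytochrome B, and of the wild type Col-0 (WT). The labels name no mutant alleles and do not say how many seeds made up a sample. Seeds of all genotypes came from plants grown together, were dried for about 2 months, and received white light for 1 h and a red pulse of 5 min at 20 μmol m-2 s-1, so every group had been exposed to light that activates phytochrome B. Each genotype was sampled after 12, 24 and 48 h of darkness, with 3 biological replicates each, which gave 9 groups and 27 libraries of 14750212 to 26293148 counts.

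Levels are given as CPM, counts scaled to a library of 1e+06 TMM-scaled counts. Differences are log2 fold changes from edgeR's quasi-likelihood test, with p-values adjusted by Benjamini-Hochberg over 20465 genes. A gene passed the test with an adjusted p under 0.05. The standard error (SE) is not an edgeR output. It was derived as the size of the log2 fold change over the square root of the test's F statistic. The hid1 and phyB comparisons at each time share the same 3 WT libraries, so their values are set side by side and not correlated. In bulk seeds, fewer cells of a type and less RNA per cell cannot be told apart.

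HID1 averaged 0.0354, 0 and 0.0162 CPM in hid1 libraries at 12, 24 and 48 h, against 24.5, 15.9 and 10.9 CPM in WT. PHYB averaged 56.7, 69.7 and 112.1 CPM in phyB libraries, against 116.6, 124.9 and 95.4 CPM in WT, so at 48 h its transcript was not lower in the mutant. Several libraries stood apart in ways that bear on the comparisons. The 6 seed storage and maturation genes summed to 272500 to 316100 CPM in phyB libraries at 48 h, 39580 to 50810 CPM in hid1 libraries and 6048 to 10440 CPM in WT libraries. The phyB libraries labelled 12 h held less storage RNA (10890 to 11970 CPM) than those labelled 24 h (57780 to 62580 CPM), whereas WT libraries held 44030 to 51190 CPM at 12 h and 8200 to 11200 CPM at 24 h. Mitochondrial genes took 0.0178 to 0.0202% of counts in the phyB libraries at 12 h, against 0.128 to 0.16% in WT libraries at 12 h and 0.0172 to 0.028% at 24 h. The phyB libraries labelled 12 and 24 h thus ran against the WT time order in storage RNA, their time labels could not be checked from the files, and every phyB result at 12 or 24 h is for the libraries as labelled. The seed coat genes BAN and TT10 reached at most 2 and 3 counts in any library.

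Transcripts of the 44 members were together less abundant in phyB seeds than in WT seeds at every time. In hid1 seeds single members differed from WT at 12 and 24 h. By 48 h 33 of 44 members were higher in hid1 than in WT, but only 20 without the third WT replicate. Of 56 other cytosolic ribosomal protein genes tested, 23 were higher and 5 lower there. Among all tested genes 36.3% were higher and 43% lower. At 48 h, the 44 genes together summed to 11340, 9506 and 9495 CPM in the 3 phyB libraries, to 25161, 23544 and 22081 CPM in the hid1 libraries, and to 21206, 20743 and 16860 CPM in the WT libraries. The phyB libraries lay below all WT libraries, the hid1 libraries lay above all of them, and the third WT replicate was the lowest of its group. Group means were 30932 ± 454, 28497 ± 1650 and 23595 ± 1540 CPM in hid1 at 12, 24 and 48 h (SD, n = 3 each). In phyB they were 18660 ± 866, 19190 ± 206 and 10114 ± 1060 CPM, and in WT 30718 ± 2590, 27926 ± 592 and 19603 ± 2390 CPM.

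The ratio of phyB to WT was 0.607, 0.687 and 0.516 at 12, 24 and 48 h on this scale, and the ratio of hid1 to WT was 1.01, 1.02 and 1.2. As a plain share of all counts the 44 genes made up 1.95, 1.88 and 0.707% in phyB and 2.9, 3.21 and 2.19% in WT, which puts the ratio at 48 h at 0.323. In the authors' deposited FPKM means, which correct for transcript length, the members held 1.04% of all FPKM in phyB at 48 h, 3.86% in hid1 and 3.32% in WT. Every one of these scales placed phyB below WT at all 3 times, with a gap whose size depended on the scale.

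**Figure D1:**
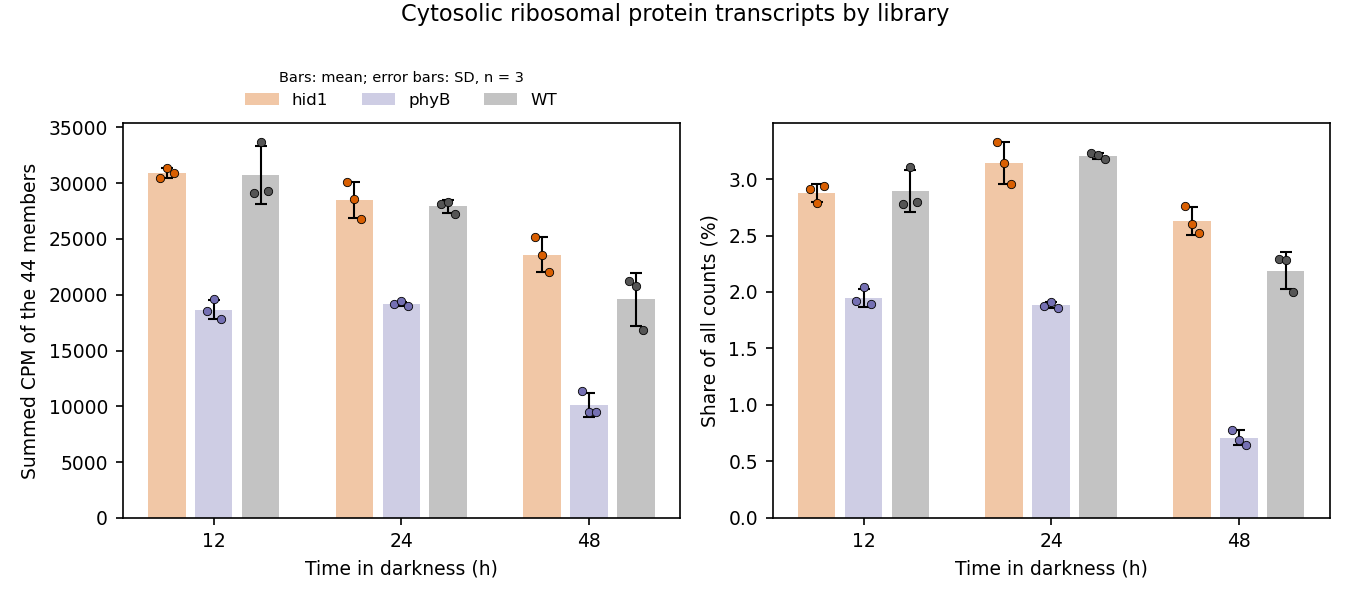
Summed level of the 44 members in each of the 27 libraries, as TMM-scaled CPM on the left and as a percentage of all counts on the right, against hours of darkness; bars are means of 3 replicates, points are libraries and error bars are SD. The phyB libraries are lowest at every time, and at 48 h the 3 hid1 libraries (22081 to 25161 CPM) lie above the 3 WT libraries (16860 to 21206 CPM).

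Promoter motifs, which the choice of genes did not use, were more frequent among the members than among all nuclear protein-coding genes. Ribosomal protein genes of plants are known for a telo box, searched here as AAACCCTA, and for site II elements, searched as TGGGCC or TGGGCT, each on both strands in the 250 bases before the annotated gene start. A telo box occurred in 9 of 44 members (20.5%) and in 4.5% of 27443 nuclear protein-coding genes. A site II element occurred in 29 of 44 members (65.9%) and in 19.2% of those genes. Both motifs were found in 5 members, a telo box alone in 4, a site II element alone in 24, and neither in 11. The stalk genes carried site II elements in 4 of 5 cases and no telo box. These are matches of letters, not mapped binding sites.

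The 120 bases before the gene start are given here for 8 members, chosen after their values were seen, to set the range of promoter types beside the range of responses; none of these windows overlaps an exon of another gene. Sequences are from RefSeq (TAIR10.1), 5′ to 3′ on the strand of the gene, with matches to either motif in capitals. STV1 (large subunit RPL24; chr3:19662026-19662145, minus strand) and RPL5B (chr5:15903159-15903278, plus strand) carry clusters of site II elements. AT3G09630 (RPL4; chr3:2953573-2953692, plus strand), SAC52 (RPL10; chr1:4887994-4888113, plus strand) and AT2G40010 (stalk P0; chr2:16710773-16710892, minus strand) carry fewer. AT5G60670 (RPL12; chr5:24381600-24381719, minus strand) and P40 (small subunit RPSa; chr1:27244932-27245051, minus strand) carry telo boxes, and AT2G27720 (stalk P2; chr2:11818110-11818229, plus strand) carries neither in this window.
STV1: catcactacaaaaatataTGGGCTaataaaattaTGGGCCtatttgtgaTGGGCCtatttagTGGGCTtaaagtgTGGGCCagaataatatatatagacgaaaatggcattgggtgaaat
RPL5B: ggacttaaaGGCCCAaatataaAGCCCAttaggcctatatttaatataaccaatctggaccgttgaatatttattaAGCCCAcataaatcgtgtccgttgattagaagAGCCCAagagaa
AT3G09630: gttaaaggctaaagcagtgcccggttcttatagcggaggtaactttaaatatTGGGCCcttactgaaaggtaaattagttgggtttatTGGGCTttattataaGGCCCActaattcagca
SAC52: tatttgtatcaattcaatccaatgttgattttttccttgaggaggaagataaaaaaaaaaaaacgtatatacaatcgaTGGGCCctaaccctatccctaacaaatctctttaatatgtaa
AT5G60670: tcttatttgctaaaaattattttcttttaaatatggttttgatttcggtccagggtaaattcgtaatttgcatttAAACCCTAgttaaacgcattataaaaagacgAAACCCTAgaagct
P40: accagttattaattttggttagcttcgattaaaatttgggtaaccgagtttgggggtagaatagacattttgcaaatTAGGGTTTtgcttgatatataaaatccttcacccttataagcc
AT2G40010: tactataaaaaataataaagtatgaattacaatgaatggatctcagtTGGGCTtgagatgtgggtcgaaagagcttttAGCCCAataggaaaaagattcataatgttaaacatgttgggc
AT2G27720: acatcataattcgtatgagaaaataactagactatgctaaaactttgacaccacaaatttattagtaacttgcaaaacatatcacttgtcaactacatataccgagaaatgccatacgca

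The phyB values of these genes at 48 h are given as a description, since the genes were chosen by their values. AT5G60670, with 2 telo boxes, and AT2G40010, with 2 site II elements, had log2 fold changes of -2.21 and -2.40 against WT. STV1, with 5 site II elements, and P40, with a telo box, had -0.70 and -0.39, and AT2G27720, with no match in the printed window, had -0.67. RPL5B, AT3G09630 and SAC52, with 4, 3 and 1 site II elements, had -1.03, -0.80 and -0.72. No test was made of motif against response.

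At 12 h, 41 of 44 members were lower in phyB than in WT and 1 was higher, while 34.2% of all tested genes were lower and 30% higher. The median change of the members was -0.65 (log2), against -0.05 over all tested genes. By subunit, 23 of 24 large subunit genes, 13 of 15 small subunit genes and 5 of 5 stalk genes were lower, with medians of -0.65, -0.65 and -0.71. Of the 56 other cytosolic ribosomal protein genes tested, 50 were lower and 1 was higher, with a median of -0.77. The phyB libraries labelled 12 h are those with little mitochondrial and storage RNA described above, and the part of that difference in these values was not tested.

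The largest falls at 12 h were in the stalk and in small subunit genes. AT2G27720 (P2), an acidic stalk protein that helps recruit elongation factors, had 313.6, 324.3 and 290.4 CPM in phyB, against 892.9, 869.6 and 777.9 CPM in WT. The groups were far apart, and the gene fell with a log2 fold change of -1.45 (SE 0.13, edgeR adjusted p = 1.06e-10). AT1G01100 (P1), the partner with which P2 pairs in the stalk, had 273.7, 296.2 and 265.6 CPM in phyB, against 644.8, 726.4 and 591.1 CPM in WT. It fell too, by 1.23 on the log2 scale (SE 0.10, edgeR adjusted p = 1.38e-11).

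RPS13A, a small subunit protein, had 269.5, 298 and 263.3 CPM in phyB, against 630.1, 724.5 and 611.1 CPM in WT, with no overlap. Its log2 fold change was -1.24 (SE 0.10, edgeR adjusted p = 3.18e-11). AT5G03850 (RPS28) had 161.1, 165.9 and 159.4 CPM in phyB, against 326.3, 429.6 and 394.8 CPM in WT. Its fall was as large, -1.24 (SE 0.11, edgeR adjusted p = 1.71e-10). P40, the more abundant of the 2 listed RPSa genes, fell as well, by 1.09 on the log2 scale (SE 0.09, edgeR adjusted p = 1.62e-11). All phyB libraries lay below all WT libraries at 12 h in 42 of 44 members and 35.5% of all tested genes.

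The exception at 12 h was RPSAb, the paralogue of P40. It had 65.88, 67.68 and 63.07 CPM in phyB, against 47.99, 40.67 and 47.64 CPM in WT. All phyB libraries lay above all WT libraries, and the gene rose with a log2 fold change of 0.53 (SE 0.08, edgeR adjusted p = 7.2e-07). No other member lay wholly above WT, while 31.8% of all tested genes did. Of the family's counts, RPSAb held 6.85, 6.78 and 6.94% in phyB and 2.51, 1.95 and 2.63% in WT at 12 h. The P40 and RPSAb transcripts therefore moved in opposite directions in the same libraries. RPL10B and RPS5B were the 2 members that did not pass, at -0.21 and -0.16.

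At 24 h, 40 of 44 members were lower in phyB than in WT and none was higher, while 34.6% of all tested genes were lower and 31.8% higher. The median was -0.53, against 0.00 over all genes, and 49 of 56 other cytosolic ribosomal protein genes were lower. The steepest fall was that of AT5G60670 (RPL12), which sits at the base of the stalk: 73.2, 72.92 and 69.5 CPM in phyB, against 213.6, 206.4 and 204.6 CPM in WT. Its log2 fold change was -1.53 (SE 0.105, edgeR adjusted p = 5.47e-13). RPSAb, higher in phyB at 12 h, was now lower, with 27.51, 27.35 and 25.47 CPM in phyB and 60.1, 58.98 and 57.02 CPM in WT. The difference between its phyB effects at 24 and 12 h was -1.66 (SE 0.11, edgeR adjusted p = 2.79e-13), with the libraries taken as labelled.

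AT2G40010, the least abundant of 3 listed genes for P0, the core of the stalk, had 4.284, 4.417 and 4.355 CPM in phyB at 24 h, against 10.86, 10.05 and 10.35 CPM in WT. It was lower by -1.26 on the log2 scale (SE 0.185, edgeR adjusted p = 9.77e-07). RPL10B, the minor RPL10 gene, was lower by -1.06 (SE 0.11, edgeR adjusted p = 1.09e-09). The members that did not pass at 24 h were RPS21 (AT5G27700), PGY2, SAG24 and RPL16B, with values between -0.21 and -0.10.

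At 48 h, 41 of 44 members were lower in phyB than in WT and 1 was higher, while 49.4% of all tested genes were lower and 40% higher. The members' median was -0.89, against -0.25 over all genes, and 19 members passed as at least 2-fold lower, while 37.3% of all tested genes did. By subunit, 22 of 24 large subunit genes, 14 of 15 small subunit genes and 5 of 5 stalk genes were lower, with medians of -1.13, -0.88 and -0.73. Scaled by total counts alone, all 44 members were lower, and the median of all tested genes was -0.92 in place of -0.25. That scaling also changed the split among all genes that passed, to 29.1% higher in place of 44.8%. Markers of other tissues moved at this time too. Storage genes were higher in phyB, as given above, and 4 of 4 green seedling genes were lower, summing to 7.52 to 9.778 CPM in phyB and 1811 to 2440 CPM in WT. The 3 endosperm genes summed to 14210 to 16680 CPM in phyB and 756.2 to 921.4 CPM in WT, with 1 higher (EPR1) and 2 lower (EXPA2 and MAN7). The part of these differences in the result was not tested.

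The 3 largest falls at 48 h were in minor paralogues. AT2G40010 (P0) had 2.804, 1.732 and 1.532 CPM in phyB, against 9.33, 10.92 and 12.23 CPM in WT, and fell by 2.40 on the log2 scale (SE 0.22, edgeR adjusted p = 4.45e-11). AT5G60670 (RPL12) had 31.8, 25.98 and 25.9 CPM in phyB, against 149.1, 138.9 and 100.2 CPM in WT, with a log2 fold change of -2.21 (SE 0.11, edgeR adjusted p = 1.4e-16). RPL10B had 8.616, 7.153 and 5.988 CPM in phyB, against 37.5, 34.72 and 26.86 CPM in WT, with -2.19 (SE 0.12, edgeR adjusted p = 1.06e-15). In each of the 3 genes, picked for their low values, the phyB and WT libraries were well separated. All phyB libraries lay below all WT libraries in 38 of 44 members and 49.2% of all tested genes.

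Among abundant members, RP1 and SAC52 fell less than these minor paralogues, and others such as AT5G02870 (RPL4) and AT4G31700 (RPS6), given with their families, fell more than both. RP1, which encodes RPL3, a protein next to the peptidyl transferase centre, had 835.4, 700.5 and 713 CPM in phyB, against 1240, 1220 and 976.3 CPM in WT. The groups did not overlap, and the log2 fold change was -0.61 (SE 0.09, edgeR adjusted p = 2.33e-07). SAC52, the main RPL10 gene, whose protein joins the large subunit late in its assembly, had 607.8, 539.6 and 528.3 CPM in phyB, against 986.4, 961.7 and 809.9 CPM in WT. Its log2 fold change of -0.72 (SE 0.08, edgeR adjusted p = 3.24e-09) stood beside -2.19 for its paralogue RPL10B and -0.54 for its paralogue SAG24.

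RPL16A, despite its symbol a gene for RPL11, was the member that passed as higher in phyB at 48 h. RPL11 and RPL5 bind the 5S ribosomal RNA together. RPL16A had 29.54, 31.77 and 31.61 CPM in phyB, against 24.47, 28.78 and 25.05 CPM in WT, a log2 fold change of 0.24 (SE 0.09, edgeR adjusted p = 0.0172). The call depended on the processing: it was lost with RLE scaling (0.15, edgeR adjusted p = 0.126) and reversed with scaling by total counts (-0.43). The adjusted p ran from 0.000257 under that reversal to 0.14 over its alternatives, and leaving out WT replicate 1 or 3 also ended the call. Its 41 shared windows of 75 bases with AT3G58700 make up 5.3% of its transcript, so some reads may count for either gene. RPS21 and PGY2, at -0.04 and -0.14, did not pass.

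Of the 44 members, 36 were lower in phyB than in WT at all 3 times, while 11.5% of all tested genes were. The phyB-to-WT ratio changed between 24 and 48 h in 33 of 44 members, further down in 32 and up in 1, while 36.5% of all tested genes went down and 35.4% went up. The downward changes included AT2G40010 at -1.14 (SE 0.30, edgeR adjusted p = 0.00149) and RPL10B at -1.13 (SE 0.17, edgeR adjusted p = 8.51e-07). The upward one was RPL16A at 1.08 (SE 0.13, edgeR adjusted p = 3.26e-08). Between 12 and 24 h the ratio went up in 12 members and down in 8, while 30.3% of tested genes went up and 31.3% went down. Scaled by total counts, that split became 6 up and 25 down, and of all genes that passed 29.9% went up in place of 49.2%, with a median of -0.37 over all tested genes.

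**Figure D2:**
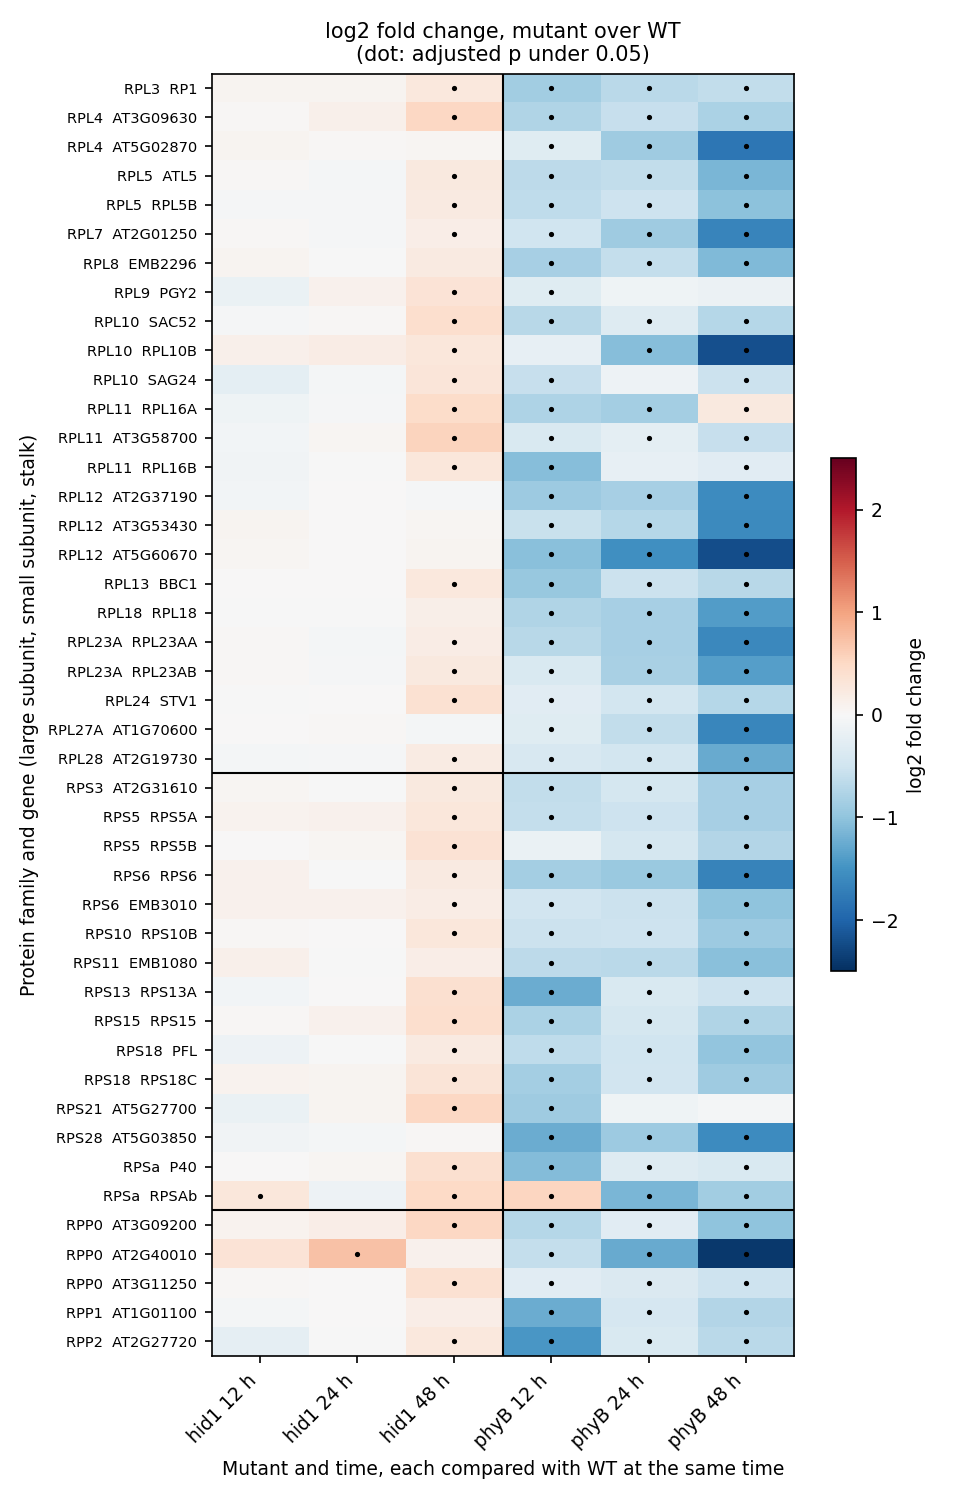
log2 fold change of each member (rows, by family and gene, large subunit above small subunit above stalk) in hid1 and phyB against WT at the same time (columns); blue is lower and red higher in the mutant, and a dot marks an adjusted p under 0.05. The phyB columns are blue except RPSAb at 12 h (0.53) and RPL16A at 48 h (0.24), and the hid1 columns are pale until 48 h except AT2G40010 at 24 h (0.73).

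In hid1 seeds the members did not differ from WT beyond single genes during the first day. At 12 h 1 of 44 members was higher and none lower, while 7.49% of all tested genes were higher and 5.91% lower. The one was RPSAb, with 58.81, 50.73 and 55.94 CPM in hid1, against 47.99, 40.67 and 47.64 CPM in WT, and a log2 fold change of 0.28 (SE 0.08, edgeR adjusted p = 0.0135). Its adjusted p passed 0.05 without WT replicate 2 (0.0914) and without hid1 replicate 1 (0.084) or 3 (0.0519), so the call rests on these libraries, and it was 0.0644 in a fit of only the groups compared. The direction of the count also depended on the setting: SAG24 passed as lower in that fit (-0.26, edgeR adjusted p = 0.0373), with RPSAb not passing, and it passed as lower beside RPSAb with scaling by total counts and with the replicate block. The medians of the 44 were 0.02 at 12 h and 0.01 at 24 h.

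At 24 h 1 of 44 was higher and none lower, while 8.46% of all tested genes were higher and 6.87% lower. The one was AT2G40010, with 19.68, 16.25 and 16.02 CPM in hid1, against 10.86, 10.05 and 10.35 CPM in WT. All hid1 libraries lay above all WT libraries, as in 5 of 44 members and 17.8% of all tested genes. Its log2 fold change was 0.73 (SE 0.15, edgeR adjusted p = 0.000852). The same gene was lower in phyB at that time, as given above. Its hid1 effect at 48 h was smaller than at 24 h, by -0.62 (SE 0.21, edgeR adjusted p = 0.0119).

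At 48 h 33 of 44 members were higher in hid1 than in WT and none was lower, while 36.3% of all tested genes were higher and 43% lower. The members' median was 0.26, against -0.06 over all genes, and no member reached a 2-fold difference. The count included 17 of 24 large subunit genes, 13 of 15 small subunit genes and 3 of 5 stalk genes. It depended on the third WT replicate, which had the lowest summed level: without it, 20 of 44 passed. With RLE scaling 23 passed. In hid1 seeds 6 of 6 storage genes and 3 of 3 endosperm genes were also higher, with the endosperm genes summing to 3049 to 3207 CPM in hid1 and 756.2 to 921.4 CPM in WT. The 4 green seedling genes were lower, and PORA, a gene of chlorophyll synthesis in seedlings, averaged 2.55 CPM against 532 CPM in WT, and the part of these differences in the result was not tested.

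The members with the highest values came from all parts of the ribosome. AT3G58700 (RPL11) had 116.9, 108 and 114.9 CPM in hid1, against 79.23, 80.64 and 72.68 CPM in WT. It rose with a log2 fold change of 0.55 (SE 0.08, edgeR adjusted p = 4.63e-07). AT3G09200, the main P0 gene, had 1566, 1447 and 1338 CPM in hid1, against 1125, 1076 and 848.9 CPM in WT. It rose by 0.51 (SE 0.09, edgeR adjusted p = 1.48e-05). RPS21 (AT5G27700), of the small subunit, rose by 0.51 as well (SE 0.08, edgeR adjusted p = 2.34e-06), with 315.4, 292.8 and 275.3 CPM in hid1 and 211.2, 224.2 and 185.6 CPM in WT. In all of these, picked for their high values, every hid1 library exceeded every WT library. That held for 26 of 44 members and 35.9% of all tested genes.

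The hid1 effect differed between 48 and 24 h in 20 of 44 members, upward in 19 and downward in 1, while 30.5% of all tested genes went up and 32.1% down. The largest upward change was that of RPSAb, 0.62 (SE 0.11, edgeR adjusted p = 1.61e-05), and the downward one was that of AT2G40010 given above. Between 24 and 12 h 1 member differed, RPSAb at -0.41, while 6.77% of tested genes went up and 7.15% down. With RLE scaling the count at 48 against 24 h was 11, and without WT replicate 3 at 48 h it was also 11.

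Set directly against each other, hid1 seeds had the higher level of 41, 40 and 44 of 44 members than phyB seeds at 12, 24 and 48 h, while 33.9, 34.3 and 41% of all tested genes were higher in hid1 and 29.5, 31.5 and 37.9% lower. The median log2 differences were 0.68, 0.56 and 1.21. RPSAb was lower in hid1 than in phyB at 12 h, by -0.25, the only member to pass in that direction at these 3 times. At 48 h 32 members passed as at least 2-fold higher in hid1, while 26% of all tested genes did.

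The changes over time within a genotype put these comparisons in order. In WT, 41 of 44 members were lower at 48 than at 24 h and none was higher, while 38% of all tested genes were lower and 44.2% higher. The median was -0.53, against 0.07 over all genes. In hid1 33 of 44 were lower at 48 than at 24 h, with a median of -0.29, while 28.4% of tested genes were lower and 31.5% higher. In phyB 43 of 44 were lower, with a median of -0.997, while 30.8% of tested genes were lower and 31% higher. The one phyB member that did not pass was RPL16A, at 0.18, and scaled by total counts it fell too, by 0.31.

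Among WT seeds the fall after 24 h was largest in RPSAb, which had 26.23, 24.39 and 22.93 CPM at 48 h, against 60.1, 58.98 and 57.02 CPM at 24 h. Its log2 fold change was -1.26 (SE 0.08, edgeR adjusted p = 1.92e-14). RPL16A fell by 0.91 (SE 0.09, edgeR adjusted p = 3.14e-10) and RPS18C, 1 of 2 listed RPS18 genes, by 0.91 (SE 0.07, edgeR adjusted p = 8.71e-12). AT2G40010, at 0.05, did not pass.

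From 12 to 24 h members changed in both directions, in shares near or below those of all tested genes. In WT, 10 were higher and 14 lower at 24 than at 12 h, while 33.1% of all tested genes were higher and 32.4% lower. AT1G70600 (RPL27A) was the highest: it had 1055, 1107 and 970.3 CPM at 24 h, against 661, 862 and 684.2 CPM at 12 h. It rose by 0.51 on the log2 scale (SE 0.10, edgeR adjusted p = 9.49e-05). AT2G27720 (P2) was the lowest, with 492.5, 502.7 and 473.8 CPM at 24 h, against 892.9, 869.6 and 777.9 CPM at 12 h, and fell by 0.79 (SE 0.13, edgeR adjusted p = 3.63e-06). SAG24 fell by 0.70 (SE 0.09, edgeR adjusted p = 1.4e-07).

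These directions held for the extremes but not for the set. With scaling by total counts, 22 members were higher and 8 lower in WT at 24 than at 12 h, and the median of all tested genes was 0.26, with 71.9% of passing genes higher in place of 50.5%. In hid1 the same comparison gave 7 higher and 14 lower, while 30% of tested genes were higher and 28.9% lower, and scaling by total counts gave 20 higher and 7 lower, with 76% of all passing genes higher in place of 50.9%. In phyB it gave 9 higher and 9 lower, while 27.7% were higher and 27.2% lower, and with that scaling 5 higher and 18 lower, with 41.4% of all passing genes higher in place of 50.4%. The fall of the members between 24 and 48 h was seen on both scales in all 3 genotypes, where total-count scaling gave 33 lower members in hid1, 44 in phyB and 42 in WT. Under that scaling 54.1% of all passing genes were higher at 48 h in hid1, 19.9% in phyB and 52.3% in WT.

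**Figure D3:**
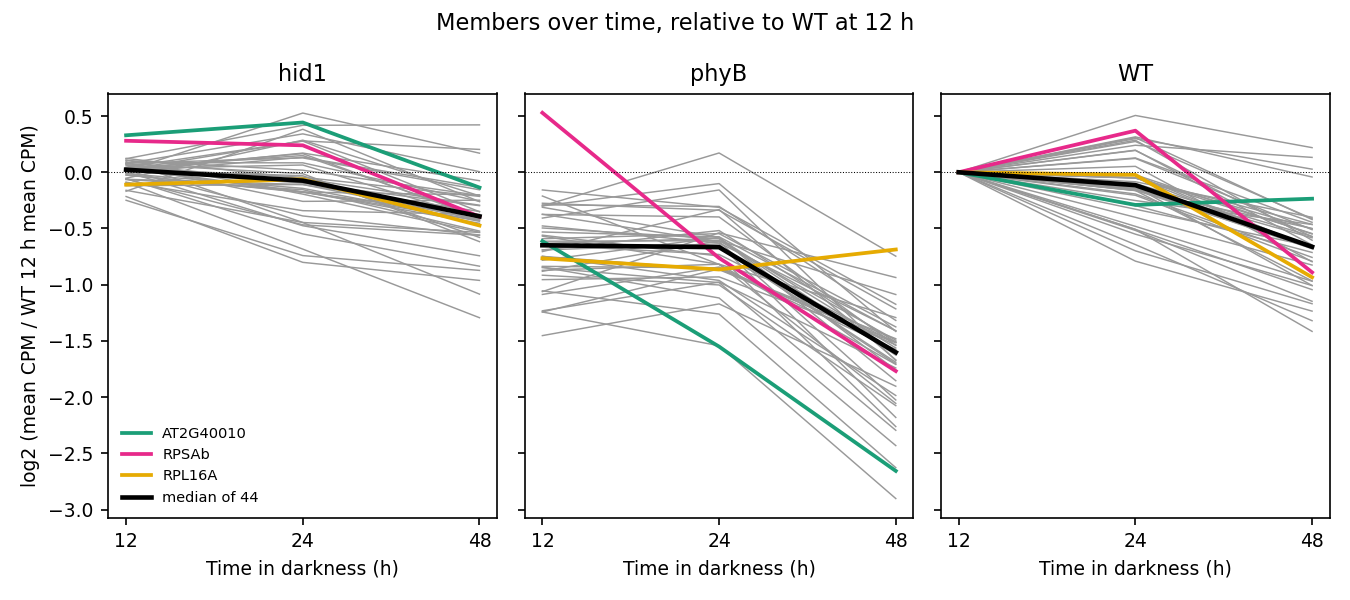
Mean level of each member at 12, 24 and 48 h of darkness in hid1, phyB and WT, as log2 of its ratio to the WT mean at 12 h; grey lines are members, coloured lines AT2G40010, RPSAb and RPL16A, and the black line is the median of the 44. The phyB median starts lower at 12 h and falls furthest by 48 h, RPSAb in phyB starts above its WT level, and RPL16A in phyB does not fall after 24 h on this scale (0.18, against -0.31 with scaling by total counts).

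Per transcript length the members spanned a wide range of levels. In the authors' deposited FPKM means for WT at 12 h, SAC52 (RPL10) stood highest at 1508 FPKM, followed by P40 (RPSa) at 1467 FPKM and EMB2296 (RPL8) at 1208 FPKM. At the low end were AT2G40010 (P0) at 9.06 FPKM, RPL10B at 31.4 FPKM, RPSAb at 36.8 FPKM and RPL16A at 61.2 FPKM, each a minor member of its family. At 48 h SAC52 was at 392.2 FPKM in phyB and 1027 FPKM in WT, and AT2G40010 at 2.04 FPKM in phyB and 15.8 FPKM in WT. At 12 h, however, AT2G40010 stood at 13.2 FPKM in phyB and 9.06 FPKM in WT, opposite in direction to its CPM (8.096, 8.324 and 8.587 in phyB, 10.36, 11.68 and 16.19 in WT). The means carry no replicates, so no error is given.

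The balance between paralogues of 1 protein was measured as a share. For the 11 families with 2 or 3 listed genes, the share of each gene in the family's counts was compared between each mutant and WT at each time, 156 comparisons in all, with exact two-sided permutation tests over libraries. With 3 against 3 libraries the smallest possible p is 0.1, so none could pass 0.05 and the differences are given with their ranges. Lack of overlap was common. In phyB a gene's share did not overlap WT in 10, 9 and 11 of the 11 families at 12, 24 and 48 h. In hid1 this held in 4, 5 and 5 families. The largest difference was 17.25 percentage points in phyB and 8.08 points in hid1, both at 48 h and both in RPL4. Shares are of counts and take no account of transcript length.

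RPL4 lines the tunnel through which the new protein chain leaves the ribosome, and its 2 genes share no window of 75 bases. AT3G09630 held 63.78, 63.52 and 64.91% of the RPL4 counts in phyB at 48 h, 54.56, 55.48 and 54.65% in hid1, and 46.85, 47.34 and 46.26% in WT. The 3 genotypes did not overlap (exact permutation p = 0.1 for each mutant against WT). At 12 h the order was the other way, with 50.81, 50.56 and 51.4% in phyB, against 58.32, 58.74 and 58.06% in WT. At 24 h the phyB share was again above WT, at 53.48 against 47.88% on average.

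Behind these shares were different courses of the RPL4 genes. AT5G02870 had 275.2, 239.3 and 240.1 CPM in phyB at 48 h, against 967.9, 908.9 and 771.1 CPM in WT, a log2 fold change of -1.81 (SE 0.08, edgeR adjusted p = 9.2e-18). AT3G09630 had 484.6, 416.6 and 444.1 CPM in phyB, against 853, 817.2 and 663.6 CPM in WT, a change of -0.80 (SE 0.08, edgeR adjusted p = 9.8e-10). Both were lower in phyB, one far more than the other. At 12 h AT5G02870 was the less affected, at -0.31 against -0.75 for AT3G09630. Its phyB effect changed by -0.58 from 12 to 24 h (SE 0.11, edgeR adjusted p = 5.9e-05). In hid1 at 48 h AT3G09630 rose by 0.51 (SE 0.08, edgeR adjusted p = 3.14e-06), whereas AT5G02870, at 0.05, did not pass.

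RPS6, the small subunit protein phosphorylated by S6 kinase downstream of TOR, is encoded by AT4G31700 (symbol RPS6) and EMB3010. AT4G31700 held 43.94, 43.2 and 43.25% of their counts in phyB at 48 h, against 54.7, 54.91 and 55.34% in WT, with no overlap (exact permutation p = 0.1). It fell by 1.67 on the log2 scale (SE 0.10, edgeR adjusted p = 4.99e-15), and EMB3010 fell by 1.01 (SE 0.08, edgeR adjusted p = 6.88e-12). The hid1 share of AT4G31700, 55.67, 54.92 and 55.81%, overlapped WT at 48 h. In phyB at 12 and 24 h its mean share was 54.79 and 52.66%, against 60.84 and 59.16% in WT.

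In RPL12, AT5G60670 held 11.24, 11.16 and 10.7% of the family's counts in phyB at 24 h, against 17.78, 17.07 and 17.3% in WT. The groups did not overlap (exact permutation p = 0.1), and the share in phyB was 10.72% on average at 48 h. Among the 3 RPL11 genes, RPL16B held 66.86% in phyB and 75.25% in WT at 12 h, and AT3G58700 held 26.5% in phyB and 18.56% in WT. The RPL5 genes ATL5 and RPL5B kept nearly even shares: ATL5 held 51.22, 51.45 and 51.62% in phyB at 12, 24 and 48 h, against 51.41, 53.03 and 53.61% in WT. The phyB share of ATL5 overlapped WT at 12 h but not at 24 or 48 h (exact permutation p = 0.1 each). Both RPL5 genes fell in phyB at 48 h, at -1.14 and -1.03.

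**Figure D4:**
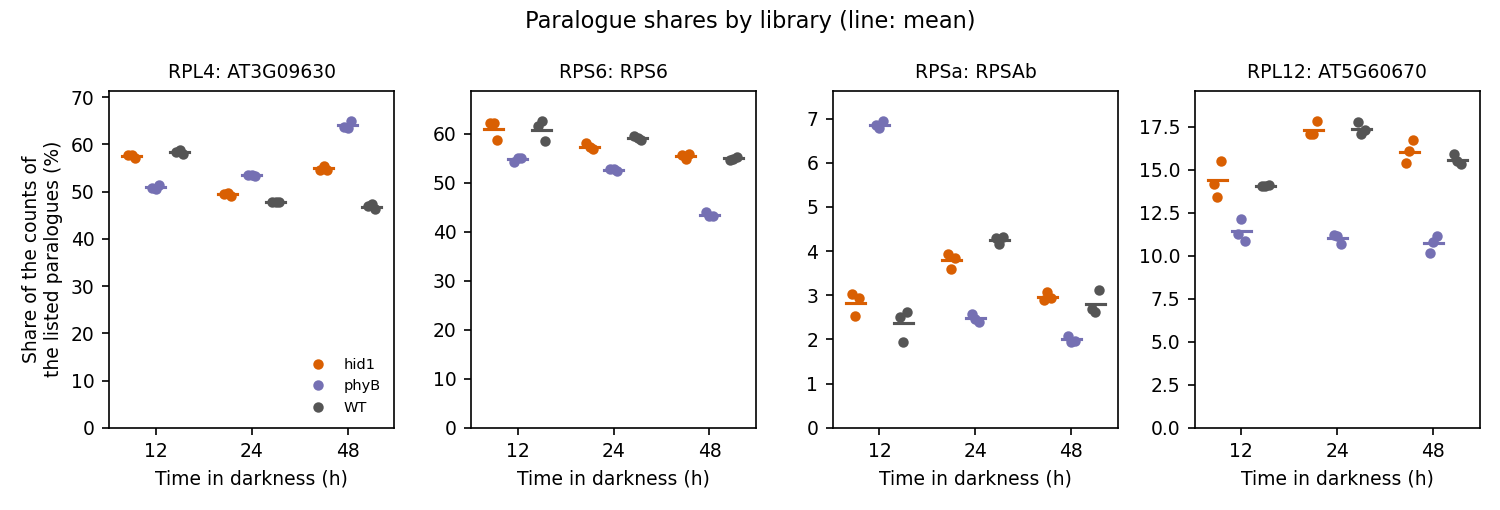
Share (%) of 1 gene in the summed counts of its listed paralogues, per library, against hours of darkness, for AT3G09630 (RPL4), AT4G31700 (RPS6), RPSAb (RPSa) and AT5G60670 (RPL12); points are libraries in hid1, phyB and WT and lines are group means. At 48 h AT3G09630 lies at 63.52 to 64.91% in phyB and 46.26 to 47.34% in WT, and RPSAb in phyB at 12 h lies at 6.78 to 6.94%.

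Sequence shared with other genes was searched as exact matches between annotated transcripts, and no reads were examined. Of the 44 members, 36 share no window of 75 bases with the transcripts of any other gene in RefSeq. Of the 8 that do, PGY2 (RPL9) shares the most, 53% of its windows, mainly with its neighbour AT1G33120. The PGY2 values may therefore include reads of that gene or lack reads of its own. No source used here says how reads that match several genes were counted.

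Other genes of protein synthesis did not all move with the members. Ribosome biogenesis factors, which process ribosomal RNA and assemble subunits, were higher in hid1 than in WT at 48 h in 23 of 23 cases, with a median of 0.81, while 36.3% of all tested genes were higher. NUC-L2 (a nucleolin) and PRH75 (an RNA helicase) had the highest values, 4.37 (SE 0.11, edgeR adjusted p = 3.53e-22) and 1.49 (SE 0.06, edgeR adjusted p = 1.31e-17). In phyB at 48 h 14 of 23 were higher and 6 lower than in WT, with a median of 0.56, while 40% of all tested genes were higher and 49.4% lower, and 41 of 44 ribosomal protein genes were lower. PRH75 was highest there at 1.67 and FIB2, a fibrillarin, lowest at -1.65. At 12 h 8 of the 23 were higher and 8 lower in phyB, close to the 30% and 34.2% of all tested genes, and at 24 h 4 were higher and 13 lower, where 31.8% of all genes were higher and 34.6% lower.

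The biogenesis genes also fell in WT between 24 and 48 h, in 22 of 23 cases, while 38% of all tested genes did. The biogenesis median was -1.06, beside -0.53 for the members. Of 12 translation factors, 2 were higher and 7 lower in phyB than in WT at 48 h, with a median of -0.32, near the 49.4% of all tested genes that were lower and their median of -0.25. In hid1 at 48 h 6 translation factors were higher and 1 lower, while 36.3% of all tested genes were higher and 43% lower. EIF3A was highest there at 0.47 and EIF4A-2 lowest at -0.30. Of 6 growth signalling genes that act on ribosomes, 5 were higher and 1 lower in phyB than in WT at 48 h. Their median was 1.14, while 40% of all tested genes were higher and 49.4% lower. S6K2 was higher by 2.01 (SE 0.07, edgeR adjusted p = 5.49e-20) and TOR by 1.26 (SE 0.08, edgeR adjusted p = 3.8e-14). The lower one was PK1, an S6 kinase gene, at -1.09 (SE 0.06, edgeR adjusted p = 1.19e-16).

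Nuclear genes for plastid ribosomal proteins showed a separate course. In phyB all 14 listed were lower than in WT at each time, with medians of -1.58, -1.05 and -2.52 at 12, 24 and 48 h. Of all tested genes, 34.2, 34.6 and 49.4% were lower at these times. In hid1 at 48 h all 14 were lower as well, with a median of -0.48, while 43% of all tested genes were lower. The cytosolic members had a median of 0.26 in that comparison and none was lower. In WT all 14 were higher at 48 than at 24 h, while 44.2% of all tested genes were. The plastid median of 0.84 was opposite in sign to the -0.53 of the cytosolic members. The 56 other cytosolic ribosomal protein genes found by product name had a median of 0.17 in hid1 at 48 h. Of them 23 were higher, near the 36.3% of all tested genes, and 5 lower, where 43% of all tested genes were. In phyB at 48 h their median was -1.12, with 3 higher and 49 lower, while 40% of all tested genes were higher and 49.4% lower.

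**Figure D5:**
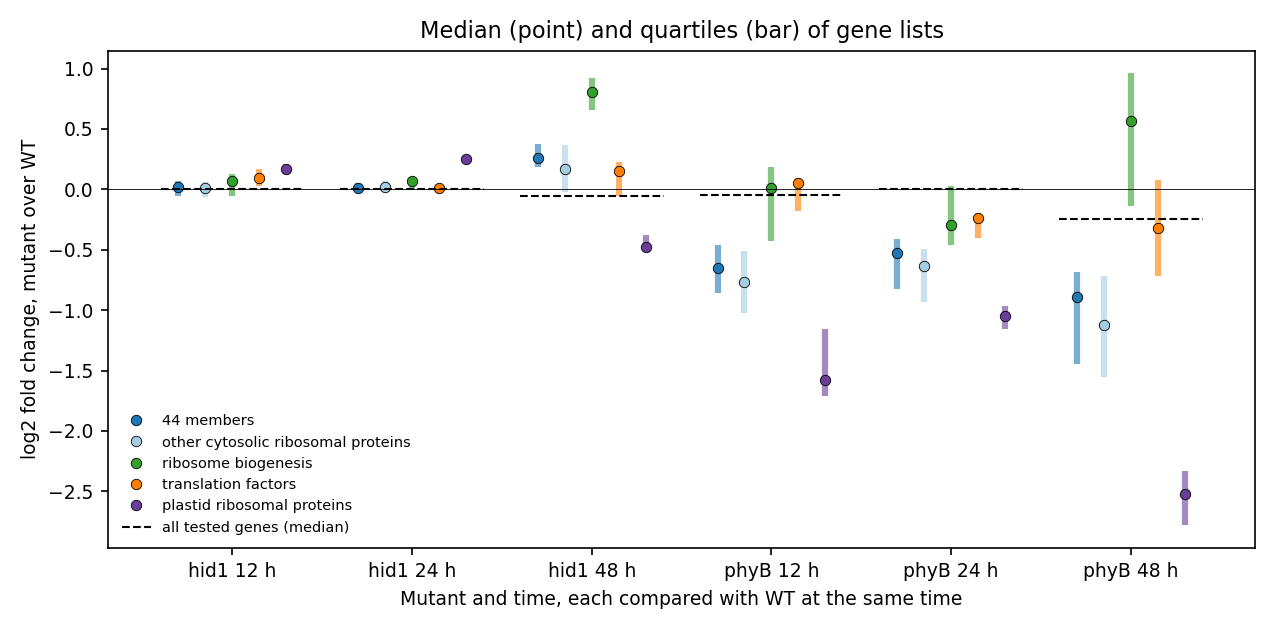
Median (points) and quartiles (bars) of the log2 fold change, mutant over WT, for the 44 members and 4 other gene lists in the 6 comparisons of a mutant with WT; dashed lines mark the median of all tested genes. In phyB at 48 h the members (-0.89) lie below and the biogenesis genes (0.56) above the median of all genes (-0.25), with the plastid ribosomal proteins lowest (-2.52).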

How the data were processed

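Poly(A) RNA of 27 seed libraries was read as 150 bp pairs from 1 μg of total RNA, per the labels' protocols. Tools and genome named in the submitters' processing notes are fastp, HISAT2 2.1.0, SAMtools 1.6 and TAIR10. Which program counted reads, with what strand setting, and how reads matching several genes were treated, no source used here states. Raw counts per gene and library were deposited by the authors, and the deposited FPKM table held 1 mean per group of 3 replicates, scaled to transcript length and library size by the authors. FPKM served for levels between genes, with no test.

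Low genes were removed with filterByExpr and libraries scaled by TMM. The test was edgeR's quasi-likelihood F test, two-sided (edgeR 4.0.16, limma 3.58.1, run in R 4.3.3), in 1 fit with a coefficient for each of 9 groups and 18 residual degrees of freedom. The 19 comparisons were each adjusted by Benjamini-Hochberg over 20465 genes. CPM used a scale of 1e+06 TMM-scaled counts. The edgeR steps were checked on counts simulated for hid1 and WT at 48 h alone, with known changes of at least 2-fold. That check covered neither the fit of all 9 groups nor smaller changes. Paralogue shares used exact permutation tests. DESeq2 1.42.0, other scalings, no filter, fits of only the groups compared, a replicate block and leaving out each library were the alternatives. In the main fit the edgeR p-values rest on a spread between replicates estimated over all 9 groups, not only in the groups compared. The reads carry no molecular identifiers.

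The members, gene lists and comparisons were chosen with earlier results of these data known. Any member may be named. Values per library come from members among the 3 highest or 3 lowest of a comparison or from families with several listed paralogues, and other lists are given by counts with examples from their 2 highest and 2 lowest genes. Names, positions and promoters are from RefSeq (TAIR10.1), matched by locus tag for all 44 members. A pairing by replicate number was checked: in no comparison of a mutant with WT did all 3 same-numbered pairs correlate above 0.1, so the numbers were not used as pairs.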

Additional observations from a re-analysis of the deposited data

Results flagged for a closer look

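Direct tests compared the effect of a mutant on the members between times. For phyB, 33 of 44 members differed between 48 and 24 h (1 up, 32 down), while 35.4% of all tested genes went up and 36.5% down. Between 24 and 12 h 20 of 44 differed (12 up, 8 down), while 30.3% of tested genes went up and 31.3% down. For hid1, 20 of 44 differed between 48 and 24 h (19 up, 1 down), while 30.5% of tested genes went up and 32.1% down. Between 24 and 12 h 1 of 44 differed, RPSAb at -0.41, while 6.77% of tested genes went up and 7.15% down.

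Single members stood out in these tests. The phyB effect on RPSAb changed by -1.66 from 12 to 24 h, where the gene was above WT at 12 h and below it at 24 h. These phyB changes take the 12 and 24 h libraries as labelled. Over the same interval the phyB effect on AT2G27720 changed by 1.07 and that on AT5G02870 by -0.58. From 24 to 48 h the phyB effect changed by 1.08 for RPL16A, by -1.14 for AT2G40010 and by -1.13 for RPL10B. The hid1 effect changed over that interval by 0.62 for RPSAb and by -0.62 for AT2G40010.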

How the results depend on the processing

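Counts of members that passed were within 1.5 times the reported count in most alternatives. The exceptions by setting were as follows. For hid1 against WT at 12 h the count was 2 with scaling by total counts and 2 with the replicate block (1 higher, 1 lower each), in place of 1 higher, and a fit of only the groups compared gave 1 lower and none higher. The replicate block moved no other count by that much. For the hid1 effect at 48 against 24 h it was 11 with RLE scaling and 13 with DESeq2, in place of 20. For the phyB effect at 24 against 12 h it was 31 with scaling by total counts, in place of 20. Leaving out 1 library at a time gave 0 to 2 members for hid1 against WT at 12 h, 20 to 36 at 48 h, and 11 to 26 for the hid1 effect at 48 against 24 h. The summed level in phyB relative to WT was 0.673, 0.587 and 0.323 at 12, 24 and 48 h as a share of total counts, in place of 0.607, 0.687 and 0.516. RPL16A in phyB reversed with scaling by total counts, to -0.43 against WT at 48 h and to -0.31 at 48 against 24 h. Values near 0 that did not pass also changed sign. AT5G02870 in hid1 at 48 h had -0.03 with RLE scaling and -0.03 with DESeq2, and -0.042 (without WT replicate 3) to 0.118 when 1 library was left out. AT5G27700 in phyB at 48 h had 0.006 in a fit of only the groups compared and -0.139 to 0.017 with 1 library left out. AT2G40010 in WT at 48 against 24 h had -0.041 (without WT replicate 3 at 48 h) to 0.147. The causes were not tested. With 3 libraries per group, precision is limited by their number, and AT2G40010 was down to 1.532 CPM in 1 phyB library at 48 h.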
